A study of Drosophila melanogaster and Drosophila simulans and Drosophila sechellia with 48 samples.

Results

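CG11089 and CG15365 are 2 genes selected on their measured larval levels, which lay above those of both parental species in the hybrids between D. simulans and D. sechellia. These genes are 2 of the 1695 named genes measured on all 48 arrays, and each is represented by 1 array element spotted in duplicate. Both elements passed the intensity filter on every array, so no value of either gene is missing. CG11089 (FBgn0039241) lies on chromosome 3R and carries the synonym atic in the RefSeq annotation, while CG15365 (FBgn0030077) lies on the X chromosome.

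The study profiled whole males on cDNA microarrays carrying D. melanogaster probes, in D. melanogaster (strain 14021-0231.00), D. simulans (14021-0251.2), D. sechellia (Cousin Island) and the sterile F1 males from D. simulans mothers and D. sechellia fathers. Males were taken as larvae (96 h), early pupae (4 h in the sample labels), late pupae (72 h) and newly emerged adults (1.5 h), which gives 16 groups of 3 arrays each. A pure-species group was 1 pool of 25 males hybridised to 3 technical arrays, whereas the 3 hybrid arrays of a stage are described as 3 separately extracted pools of 25 males. All samples were amplified through 2 rounds before labelling, and every array carried the same unamplified mixed-stage D. melanogaster reference in the other dye. Each value is therefore a log2 ratio of the sample to that reference, and 0 means equal signal. Because the probes are D. melanogaster sequence, a difference between species may include a difference in how well the transcript binds the probe, which cannot be told apart from transcript level here.

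CG11089 encodes the bifunctional enzyme that performs the closing steps of de novo purine synthesis, adding a formyl group from a folate carrier and closing the ring to give inosine monophosphate. This product is the precursor of both adenine and guanine nucleotides, which growing larval tissues need for RNA and DNA. No function is given here for CG15365. As males carry a single X chromosome from their mother, the copy of CG15365 in these hybrid males is that of D. simulans, whereas CG11089 is present in 1 copy from each parent. In RNA from whole animals, fewer cells of a type cannot be told apart from less transcript per cell.

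Among the 48 pairs of arrays within groups, 7 pairs were near-identical, with differences between duplicate spots correlating at 0.61 to 0.97 against -0.03 to 0.04 for the other pairs, and each such pair was counted as 1 array. Of these pairs 6 were technical arrays of a pure species, and 1 joined the adult hybrid arrays 1 and 2 (0.61), which are described as separate pools, so that the adult hybrids are taken here as 2 distinct arrays. The larval hybrid pool 1 stood apart from the other 2 pools: its differences from them had an SD over genes of 0.68 and 0.65, against 0.38 between pools 2 and 3. The duplicate spots of the members agreed closely, with a correlation over the 48 arrays of 0.98 for CG11089 and 0.97 for CG15365, and a median gap between spots of 0.13 and 0.15.

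In larvae, the hybrids had a high level of both transcripts and both parents a low one. For CG11089, the enzyme of purine synthesis, the log2 ratio was 1.75, 0.47 and 1.80 in hybrid pools 1, 2 and 3. The D. simulans arrays gave -1.39, -1.91 and -2.01, and the D. sechellia arrays gave -0.72, -1.36 and -1.30. All 3 hybrid pools lay above all arrays of both parents, with pool 2 well below the other 2 pools. Relative to the parental mean, the excess over D. simulans was 3.52, 2.24 and 3.57 in the 3 pools, and the excess over D. sechellia was 2.87, 1.59 and 2.92. The mean excess of 3.11 over D. simulans is a ratio of 8.65, and that of 2.46 over D. sechellia is a ratio of 5.51.

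CG15365 showed the same arrangement, with a log2 ratio of 2.01, 1.36 and 2.38 in the 3 larval hybrid pools. Larvae of D. simulans gave -0.76, -0.23 and -0.49, and those of D. sechellia -0.30, -0.10 and -0.01. Again pool 2 was the lowest of the hybrids, and it still lay above every parental array. The mean excess was 2.41 over D. simulans (a ratio of 5.30) and 2.05 over D. sechellia (a ratio of 4.14). These larval values are those on which the genes were picked and are given as a description without a test.

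**Figure D1:**
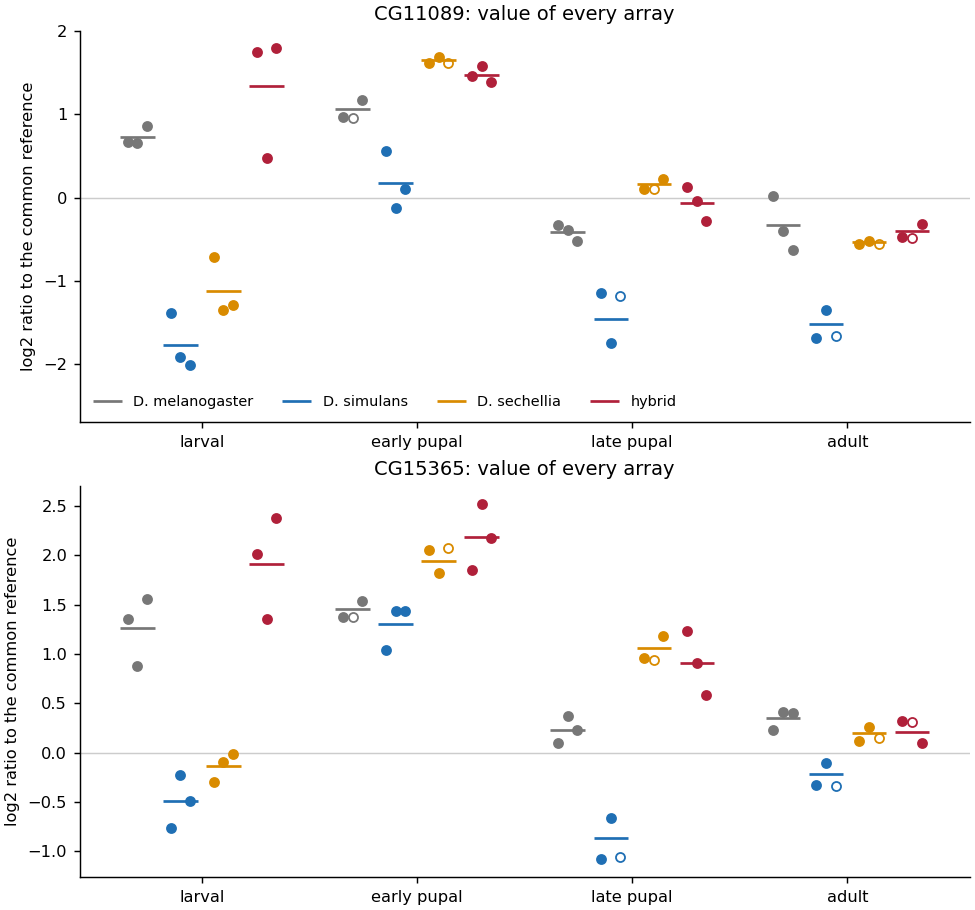
Log2 ratio to the common reference (vertical axis) of CG11089 and CG15365 on every array, by stage (horizontal axis) and by species or hybrid (colour). Points are arrays, open points are arrays near-identical to an earlier one of their group, and lines are group means; the larval hybrids sit at 0.47 to 1.80 for CG11089 and 1.36 to 2.38 for CG15365, above all larval arrays of both parents.

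Ranked by how far the mean of the larval hybrids exceeded the higher parent, CG11089 was first of 1695 genes and CG15365 second. They were followed by cer, an inhibitor of cysteine proteases, at 2.00 and by Ldaf1 at 1.51, both of which were chosen for mention after their values were seen. The median gene lay 0.23 below its higher parent (-0.23), and the 99th percentile was 0.96. Pool by pool the rank of CG11089 was 3, 3 and 1, and that of CG15365 was 9, 6 and 2. As both genes were picked for lying above both parents in these larvae, their ranks are a description. All 3 hybrid pools lay above all larval arrays of both parents for 6.37% of the genes (10.6% above D. simulans and 16.2% above D. sechellia), which is a share that the choice of these 2 genes used. Elsewhere a call means a difference of 1.5-fold or more with an adjusted p below 0.05. In larval hybrids 0.118% of genes reached this above D. simulans and 0.118% above D. sechellia (0% and 0.059% below). In both cases this share was made up of CG11089 and CG15365 alone, so it is no background for them, and nothing is read from these calls.

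**Figure D2:**
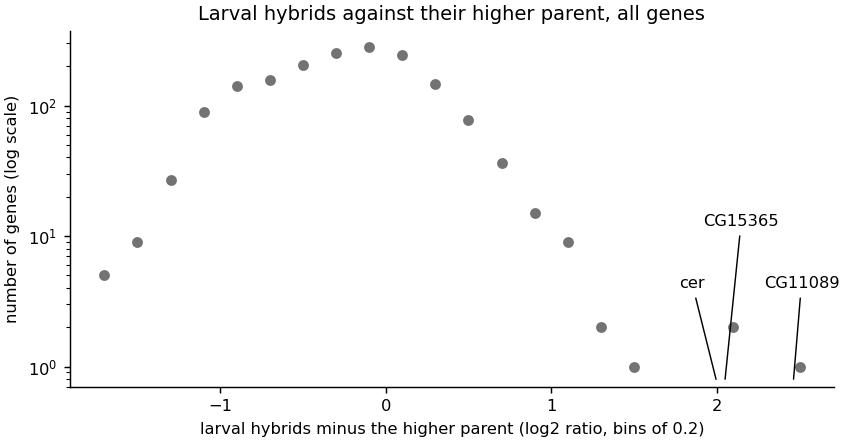
Number of genes (vertical axis, log scale) by the difference between the larval hybrids and the higher of their parents (horizontal axis, log2 ratio, counted in bins of 0.2). CG11089 at 2.46, CG15365 at 2.05 and cer at 2.00 are marked, and the remaining genes reach 1.51. CG11089 and CG15365 were picked for lying above both parents in these larvae.

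The larval pools differed among themselves for both genes. The difference between pools 2 and 3 was -1.33 for CG11089, the 13th largest in size of 1695 genes, and -1.02 for CG15365, the 29th largest. Between pools 1 and 2 it was 1.28 and 0.65, with ranks of 98 and 475, and between pools 1 and 3 it was -0.05 and -0.37, with ranks of 1583 and 861. Thus pool 2, and not the pool that stood apart over all genes, held the low value of both transcripts. Without pool 2 the excess of CG11089 over D. simulans was 3.55 and over D. sechellia 2.90, and without pool 1 it was 2.91 and 2.26.

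Levels in D. melanogaster, which played no part in the choice of the genes, were also high in larvae. The 3 larval arrays gave 0.67, 0.66 and 0.86 for CG11089 and 1.35, 0.88 and 1.55 for CG15365. For both genes the range of these arrays overlapped that of the larval hybrid pools and lay wholly above both parents, as for 13% of genes. The larval values of both parents are among those on which the genes were picked, and the probes are D. melanogaster sequence. This order is therefore a description, and its cause was not tested.

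Other tissues and the stage of the larvae were looked at through marker genes. The 2 measured markers of larval fat body, Fbp1 and Fbp2 of the 9 on that list, had a mean log2 ratio of -0.26 to 0.18 in the larval hybrid pools, against -0.80 to -0.56 in D. simulans and -0.94 to -0.69 in D. sechellia. Pool 2 had the lowest value of the 3 pools for this list, at -0.26, and also for the nervous system list below, at -0.63. It had the highest for the muscle list, at 0.10, and lay between the other pools for testis and salivary gland. The 8 measured testis markers (of 16) lay at -1.78 to -1.19 in larval hybrids, against -1.34 to -0.63 in D. simulans and -1.08 to -0.81 in D. sechellia. The 8 measured muscle markers (of 14) lay at -0.72 to 0.10, against -0.19 to -0.14 and 0.25 to 0.64 in the same order. The 3 measured markers of the nervous system (of 9) lay at -0.63 to -0.44 in hybrids and -0.68 to -0.54 in the parents, and the 2 of the salivary gland (of 8) at -1.82 to -1.48, against -1.40 to -0.83 and -1.28 to -1.23. No listed marker of the digestive tract or of hemocytes was measured on all arrays. None of the measured list members was called between larval hybrids and either parent, and the part of tissue make-up in the larval values was not tested.

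For the stage, 24 genes rose and 38 fell from larva to early pupa in D. melanogaster. Their median log2 ratio in the larval hybrid pools was -0.77 to -0.53 for the genes that rose, against -0.88 to -0.53 in D. simulans and -1.04 to -0.86 in D. sechellia. For those that fell it was 0.11, 1.01 and 0.70 in pools 1, 2 and 3, against 0.68 to 0.97 and 1.01 to 1.25 in the parents. At the early pupal stage the hybrids gave 1.06 to 1.25 for the former genes and -1.93 to -1.69 for the latter. The larval hybrids lay on the larval side for both sets, and whether pool 1 was taken at another point of development was not tested.

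After the larval stage the hybrids were close to D. sechellia and stayed above D. simulans. In early pupae CG11089 gave 1.46, 1.58 and 1.38 in the hybrids, 1.62, 1.69 and 1.62 in D. sechellia, and 0.56, -0.13 and 0.11 in D. simulans. The hybrids thus lay above D. simulans and just below D. sechellia, without overlap, as 20.6% of genes lay below D. sechellia. In late pupae the hybrids gave 0.12, -0.04 and -0.29, D. sechellia 0.10, 0.10 and 0.22, and D. simulans -1.15, -1.75 and -1.19. In adults the hybrids gave -0.47, -0.49 and -0.32, D. sechellia -0.56, -0.52 and -0.56, and D. simulans -1.69, -1.35 and -1.67. The late pupal hybrids overlapped D. sechellia, the adult hybrids lay just above it, and at both stages they lay wholly above D. simulans.

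For CG15365 the early pupal hybrids gave 1.86, 2.52 and 2.18, D. sechellia 2.06, 1.82 and 2.08, and D. simulans 1.05, 1.44 and 1.44. Late pupal values were 1.23, 0.90 and 0.59 in the hybrids, 0.96, 0.93 and 1.18 in D. sechellia, and -1.08, -0.66 and -1.06 in D. simulans. Adult values were 0.32, 0.31 and 0.09 in the hybrids, 0.12, 0.26 and 0.15 in D. sechellia, and -0.33, -0.11 and -0.34 in D. simulans. At each of these stages the hybrids overlapped D. sechellia and lay above D. simulans. All hybrid arrays lay above all D. simulans arrays at each of the 3 later stages for both genes, as they did for 2.06% of all genes, and for 14.4%, 18.9% and 18.3% of genes with the stages taken singly. In adults CG11089 also lay above all arrays of D. sechellia (30.9% of genes) and so of both parents (8.61%). Both genes were also higher on all hybrid arrays than on all those of D. melanogaster in early pupae (23.7% of genes) and late pupae (17.7%).

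Tested across all genes with 1 limma model, 1 of the 12 comparisons of a gene with a parent at the 3 later stages was called. CG15365 was higher in late pupal hybrids than in D. simulans by 1.77 (SE 0.38, adjusted p = 0.0452, a ratio of 3.42), where 0.59% of genes were called higher. This was the largest such difference of the 223 X-linked genes and the sixth of 1695 genes. The call was lost in 13 of 25 alternative analyses, among them each one that left out a late or an early pupal hybrid pool, in which the difference was 1.61 to 1.93. Beside this call the late pupal level of the fat body markers Fbp1 and Fbp2 was -0.73, -1.44 and -1.89 in the 3 hybrid pools and -1.88 to -1.67 in D. simulans, which overlap. The testis markers lay apart, at -0.26 to 0.20 in hybrids and 0.64 to 0.67 in D. simulans, as did those of the salivary gland, at -2.17 to -1.39 and -1.36 to -0.99. Those of muscle (-0.31 to 0.04 against -0.19 to 0.09) and of the nervous system (0.46 to 1.02 against 0.42 to 0.57) overlapped. None of these markers was called there, and the part of tissue make-up in the late pupal values was not tested. The other differences from D. simulans did not pass the threshold. For CG11089 they were 1.29 (SE 0.41, adjusted p = 0.129) in early pupae, 1.39 (SE 0.41, adjusted p = 0.119) in late pupae and 1.12 (SE 0.44, adjusted p = 0.235) in adults, where 0.236%, 0.59% and 0.413% of genes were called higher, ranking 7, 19 and 17 from the highest of 1695 genes. For CG15365 they were 0.88 (SE 0.38, adjusted p = 0.295) in early pupae and 0.43 (SE 0.41, adjusted p = 0.734) in adults. In this model the spread comes only from the hybrid pools, since each pure-species group is 1 pool.

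None of the 6 comparisons with D. sechellia was called, and 0 had an unadjusted p under 0.05 (limma), where 0.059% of genes were called higher and 0% lower in early pupae, 0% either way in late pupae, and 0.118% higher and 2.89% lower in adults. The difference of CG11089 was -0.19 (95% interval -1.05 to 0.68), -0.23 (-1.09 to 0.64) and 0.14 (-0.78 to 1.06) from the early pupal stage on. That of CG15365 was 0.24 (-0.57 to 1.05), -0.16 (-0.97 to 0.65) and 0.01 (-0.85 to 0.87). Differences of up to about 1 on the log2 scale in either direction therefore remain possible.

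**Figure D3:**
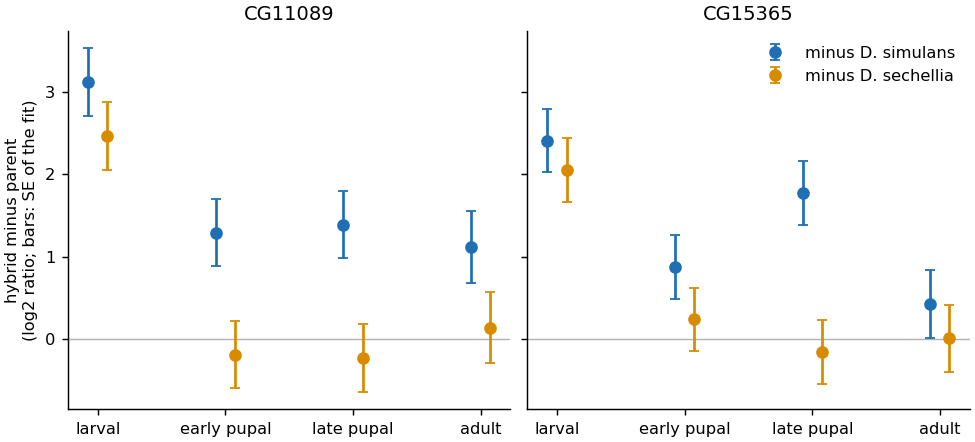
Difference in log2 ratio between hybrids and each parent (vertical axis) at the 4 stages (horizontal axis), for CG11089 and CG15365, with bars of 1 SE from the limma model. The excess over D. simulans is 3.11, 1.29, 1.39 and 1.12 for CG11089, while that over D. sechellia is 2.46 in larvae and between -0.23 and 0.14 at the other stages.

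The parents were also compared with each other at the 3 later stages. All D. sechellia arrays lay above all D. simulans arrays for both genes at each of these stages, as did 25%, 30.1% and 22% of genes from the early pupal to the adult stage. The mean difference of CG11089 was 1.48, 1.62 and 0.98 at the 3 stages in turn, and that of CG15365 was 0.64, 1.93 and 0.42. None was called (limma, adjusted p = 0.113 to 0.917), although 3 of the 6 had an unadjusted p under 0.05, where 0% of genes were called higher at any of these stages and 0.118% lower, in early pupae only. With the 1695 genes ordered from the highest difference, CG11089 was at place 4, 17 and 56 and CG15365 at place 195, 5 and 302. In larvae the same difference was 0.65 for CG11089 and 0.36 for CG15365, and here the arrays of the 2 parents overlapped for CG15365 but not for CG11089 (15.7% of genes).

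Both transcripts had lower levels in late pupae than in early pupae in each species and in the hybrids, a difference that was called in the hybrids and D. simulans only. All 3 early pupal arrays lay above all 3 late pupal arrays in each of the 4 groups for both genes, as for 13.9% of all genes. Within single groups the share was 30.8% in D. melanogaster, 31.5% in D. simulans, 37.6% in D. sechellia and 29.3% in the hybrids. In D. melanogaster, early pupae gave 0.97, 0.95 and 1.18 for CG11089 and late pupae -0.33, -0.39 and -0.52. For CG15365 early pupae gave 1.38, 1.38 and 1.53 and late pupae 0.09, 0.37 and 0.22. These ranges were far apart for both genes, and the adult arrays of D. melanogaster stayed near the late pupal ones, at 0.02, -0.40 and -0.63 for CG11089 and 0.23, 0.42 and 0.40 for CG15365.

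From early to late pupa, CG11089 fell by 1.54 in the hybrids (SE 0.29, adjusted p = 0.000503) and by 1.64 in D. simulans (SE 0.50, adjusted p = 0.0463). CG15365 fell by 1.28 in the hybrids (SE 0.27, adjusted p = 0.00140) and by 2.17 in D. simulans (SE 0.47, adjusted p = 0.00699). At this transition 20.3% of genes were called lower in the hybrids and 5.25% in D. simulans. The changes in D. melanogaster were -1.48 for CG11089 (SE 0.50, adjusted p = 0.0886) and -1.23 for CG15365 (SE 0.47, adjusted p = 0.133), and those in D. sechellia were -1.50 (SE 0.50, adjusted p = 0.0732) and -0.88 (SE 0.47, adjusted p = 0.308). These 4 were not called, where 3.24% of genes were called lower in D. melanogaster and 4.72% in D. sechellia. The call of CG11089 in D. simulans was lost in 11 of 25 alternative analyses. As each pure-species group is 1 unit, the SE of these pure-species changes also comes from the spread between hybrid pools. The change from early to late pupa was also compared between groups, and no difference in it was called between any pair of groups for either gene (limma interaction, adjusted p of 0.667 or more).

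From late pupa to adult the changes were smaller and none was called, while 1 of the 8 had an unadjusted p under 0.05 (limma). The share of genes called higher was 2.89%, 1.71%, 3.19% and 7.26% in D. melanogaster, D. simulans, D. sechellia and the hybrids, and the share called lower was 2.06%, 1.18%, 2.54% and 5.78%. For CG11089 they were 0.07 in D. melanogaster, -0.06 in D. simulans, -0.70 in D. sechellia and -0.33 in the hybrids (SE 0.32 to 0.50, adjusted p = 0.479 to 0.979). For CG15365 they were 0.12, 0.64, -0.87 and -0.70 in the same order (SE 0.30 to 0.47, adjusted p = 0.146 to 0.952). D. simulans thus differed in sign from D. sechellia and the hybrids for CG15365, but the differences of -1.51 and -1.35 between these changes were not called (adjusted p = 0.853 and 0.625). Counting every array as a replicate also takes the near-identical adult hybrid arrays 1 and 2 as separate. The change of CG15365 in the hybrids was then -0.67 and passed the threshold without the replicate block (limma, adjusted p = 0.00929) and with it (adjusted p = 0.00967). That of CG11089 in the hybrids was -0.36 and did not (adjusted p = 0.270 and 0.238). Other changes also depended on what counted as a replicate. By the methods' t-test, which takes spots of 1 pool as independent, CG11089 (-0.69) and CG15365 (-0.85) in D. sechellia and CG15365 in D. simulans (0.67) passed.

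From larva to early pupa the species differed in what could be compared. In D. melanogaster the changes of 0.34 for CG11089 (SE 0.50, adjusted p = 0.842) and 0.20 for CG15365 (SE 0.47, adjusted p = 0.914) were not called, where 1.42% of genes were called higher and 2.24% lower. In D. simulans and D. sechellia this step rests on the larval values that chose the genes and is described only: the rank of CG11089 among the increases was 23 and 12 of 1695 genes, and that of CG15365 was 32 and 33. In the hybrids the ranks were 678 and 497, as their larval and early pupal levels were close.

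Ordered over all 16 groups, CG11089 was highest in early pupae of D. sechellia, at a mean of 1.66, followed by early pupal hybrids at 1.47 and larval hybrids at 1.34, and it was lowest in D. simulans larvae at -1.77. The early pupae of D. sechellia and of the hybrids did not overlap, whereas the larval hybrids spanned the range of both the early pupal hybrids and D. melanogaster early pupae. The order went on with D. melanogaster early pupae at 1.07 and larvae at 0.73, D. simulans early pupae at 0.18, D. sechellia late pupae at 0.16 and late pupal hybrids at -0.07. From the D. simulans early pupae down to the D. melanogaster late pupae (-0.41), every group overlapped its neighbour in the order. The lowest 4 groups were the larvae of D. sechellia and the late pupae, adults and larvae of D. simulans, at -1.12, -1.46, -1.52 and -1.77, each overlapping the next.

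CG15365 was highest in early pupal hybrids, at a mean of 2.18, followed by early pupae of D. sechellia at 1.94 and larval hybrids at 1.92. From the early pupal hybrids down to the late pupal hybrids at 0.91, the first 8 groups each overlapped the next. The adults of D. melanogaster at 0.35, D. melanogaster late pupae at 0.23, adult hybrids at 0.20 and D. sechellia adults at 0.19 formed a further overlapping run. The lowest groups were D. sechellia larvae at -0.13, then D. simulans adults, larvae and late pupae at -0.22, -0.49 and -0.87. For each gene the larvae of the hybrids thus stood at place 3 in the order and the larvae of both parents among the lowest 4.

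The 2 genes followed each other closely over the groups. Across the 16 group means their Pearson correlation was 0.97 and their Spearman correlation 0.98, and of 1694 other genes each was the one most like the other by both measures. Without the 4 larval groups, among them those on which they were picked, the values were 0.96 and 0.98 over 12 groups. By the Pearson correlation each was still the gene most like the other, and ranks by the Spearman correlation were not taken there. These group means share arrays, the reference and the stage series, so the correlations are a description and have no p-value. Within groups, 30 of the 41 distinct arrays are technical arrays of 1 pool, so their deviations hold no difference between animals. Over 41 distinct arrays, each taken as a deviation from its group mean, the correlation between the genes was 0.20, placing CG15365 at rank 315 among the genes most like CG11089, and without the larval hybrids it was -0.24 over 38 arrays.

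**Figure D4:**
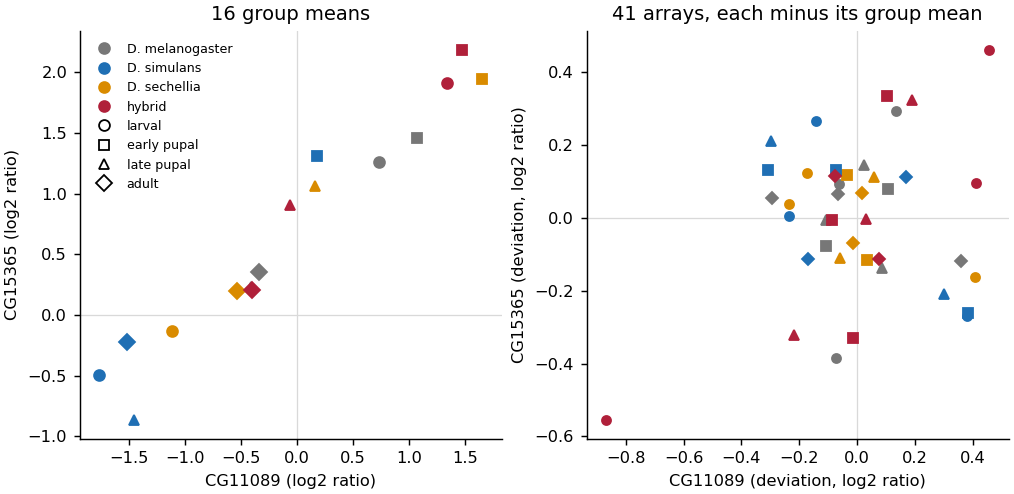
Left, mean log2 ratio of CG15365 (vertical axis) against that of CG11089 (horizontal axis) in the 16 groups, coloured by species or hybrid and shaped by stage, which correlate at 0.97. Right, the same genes on 41 distinct arrays, each minus its group mean, which correlate at 0.20, and at -0.24 without the 3 larval hybrid pools.

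The next gene most like either of them was Sh3beta, at a Pearson correlation of 0.90 with each. In larvae Sh3beta gave a mean of 0.23 in the hybrids, -0.95 in D. simulans and -1.12 in D. sechellia. In late pupae its hybrids lay 1.83 above D. simulans, and its late pupal level minus the early pupal one was -1.60 in the hybrids and -2.50 in D. simulans. As Sh3beta was chosen for its likeness over these same groups, its values are a description without a test. The others most like CG11089 were nocte, a gene needed for the resetting of the circadian clock by temperature, at 0.86, Capr, an RNA-binding regulator of translation, at 0.83, and Clamp, a zinc finger protein of the dosage compensation machinery, at 0.83. Those most like CG15365 were Arf1, a small GTPase of vesicle traffic at the Golgi, at 0.85, CG33095 at 0.85 and CG5674 at 0.84. By the Spearman correlation, 5 of the 10 places in these lists were held by the same genes.

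These genes were chosen for following the 2 genes over all groups, so the values that follow are a description. Larval hybrids exceeded the higher parent by 1.18 for Sh3beta, 0.82 for nocte and CG5674, 0.49 for Capr, 0.43 for Clamp, 0.39 for CG33095 and 0.24 for Arf1.

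The remaining pathway of purine synthesis was thinly covered. Of the 7 genes listed for the route to inosine monophosphate, 2 were measured on all arrays, CG11089 itself and Paics, whose enzyme carries out preceding steps of the same route. In larvae Paics gave 0.56, 0.05 and 0.66 in hybrid pools 1, 2 and 3, against -0.97, -1.24 and -0.83 in D. simulans and -0.69, -0.51 and -0.53 in D. sechellia. The 3 pools lay above all arrays of both parents, as for 6.37% of genes, and pool 2 was the lowest of them. The mean excess was 1.44 over D. simulans (SE 0.32, adjusted p = 0.0824) and 1.00 over D. sechellia (SE 0.32, adjusted p = 0.131), and neither was called. D. melanogaster larvae, which were high for CG11089, gave -0.72, -0.86 and -0.90 for Paics and lay with the parents.

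From early to late pupa Paics fell by 1.33 in the hybrids (SE 0.23, adjusted p = 0.000188), where 20.3% of genes were called lower. Its changes elsewhere were -0.71 in D. melanogaster, 0.35 in D. simulans and -0.52 in D. sechellia (adjusted p = 0.343, 0.660 and 0.498). In late pupae it lay below both parents in the hybrids, by -0.58 against each, which was not called. None of the genes listed for the conversion of inosine monophosphate to AMP and GMP, for folate carriers, for purine salvage or for nucleotide reduction was measured on all arrays.

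Of the 6 listed genes of pyrimidine and phosphoribosyl pyrophosphate synthesis, Prps and r-l were measured. Prps, whose enzyme makes the sugar phosphate that starts purine synthesis, had larval differences of 1.01 from D. simulans and 1.03 from D. sechellia (SE 0.33, adjusted p = 0.199 and 0.131). For r-l, which encodes the enzyme that completes uridine monophosphate, they were -0.29 and -0.43 (SE 0.35, adjusted p = 0.796 and 0.524). From early to late pupa in the hybrids Prps fell by 0.63 (SE 0.23, adjusted p = 0.0404), where 20.3% of genes were called lower. Of the 12 listed genes of ribosome formation 3 were measured, with larval differences of -1.12 to 0.26 from D. simulans and -0.63 to 0.54 from D. sechellia, none of them called. In this list 1 gene was called lower from early to late pupa in the hybrids and 1 in D. simulans, beside 20.3% and 5.25% of all genes.

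Neighbouring genes on the chromosome were not among those most like the 2 genes. On 3R the nearest measured genes beside CG11089 were Nct, a subunit of gamma-secretase, with 10 genes in between, and CG13643, with 3 in between. Their correlations with CG11089 over the 16 groups were 0.61 and -0.42, at ranks 142 and 1368 of 1694. On the X the nearest measured genes beside CG15365 were CAH3, a carbonic anhydrase, and His3.3B, a histone variant gene, with 20 and 17 genes in between. Their correlations with CG15365 were 0.48 and 0.68, at ranks 331 and 99. In larvae His3.3B gave -0.14 in the hybrids, -0.69 in D. simulans and -0.66 in D. sechellia, and CAH3 gave 0.52, 0.16 and 0.07.

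Over the 223 X-linked genes the median difference between hybrids and D. simulans was 0.01, -0.03, -0.14 and 0.03 from the larval to the adult stage, beside medians of -0.08, -0.06, -0.08 and 0.06 over all genes. CG15365, at 2.41, 0.88, 1.77 and 0.43, was at place 1, 10, 1 and 45 of the X-linked genes from the highest. Its larval value and place rest on the contrast for which the gene was picked and are a description only.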

How the data were processed

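The 2 genes and all gene lists were chosen with earlier results of these data known. The authors deposited 1 log2 ratio per spot (sample in Alexa647 over reference in Alexa555, no dye swap), after scanning, removal of weak or flawed spots and joint spatial and intensity loess within each array in maanova; the depth of an array has no count, and precision is limited by the number of arrays. Duplicate spots were averaged, elements were named through the platform annotation or the authors' spot list, and the first element stood for a gene. Pure-species arrays were averaged to 1 unit per group and near-identical arrays merged (duplicate-spot differences correlating above 0.3), giving 23 units, and 1 model over 16 groups was fitted with limma 3.58.1 in R 4.3.3 (7 residual and 10.2 prior degrees of freedom). P-values were adjusted by Benjamini-Hochberg over 1695 genes and called at 0.05 and 1.5-fold. Where nothing says that arrays came from separate animals, p-values measure only the spread between these samples, which in the limma model is that between hybrid pools. This holds also for changes within a pure species and for the parents compared with each other. Each pure-species group is 1 unit and has no spread of its own. Genes named were the 2 members, the 5 most like each by Pearson correlation, the nearest measured neighbours and listed genes. Replicate numbers paired samples (every correlation of deviations over 0.1) in 3 of 24 comparisons, among them both hybrid transitions after the early pupal stage; the source is the data, not a label. The fit, SAM and the methods' t-test were tested on simulated data. Sequences of probes, promoters and proteins were not used here.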

Additional observations from a re-analysis of the deposited data

How the results depend on the processing

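The larval excess of both genes over each parent moved by less than 1 SD of the hybrid pools in all 22 alternatives of each of the 4 values. Many alternatives could not move it, such as leaving out hybrid pools of later stages or treating the elements of a gene otherwise. Dropping 1 larval hybrid pool could not move it by 1 SD either, so no stability is read from this count. Leaving out arrays or pools gave 2.77 to 3.55 over D. simulans and 2.15 to 2.90 over D. sechellia for CG11089, and 2.18 to 2.82 and 1.82 to 2.35 for CG15365. The number of calls depended on what counted as a replicate. Of 12 comparisons of hybrids with a parent 1 was called, against 5 with every array a replicate, 5 with the replicate block added and 5 with SAM over spots, and 0 with all elements tested, with the first or second spot only and with arrays centred on their median (0 to 3 when replicates were left out). Of 18 developmental changes 4 were called, against 12 with every array a replicate, 12 with the replicate block and 12 with the methods' t-test, also after Benjamini-Hochberg adjustment (3 to 6 when replicates were left out). Of 6 comparisons between the parents 0 were called by limma, against 5 with every array a replicate, 5 with the replicate block, 5 with SAM and 1 with arrays scaled to the same SD (0 to 1 when replicates were left out). The alternatives with every array a replicate, SAM and the methods' t-test take technical arrays or spots of 1 pool as independent. The replicate block changed no call of those made with every array a replicate. The Spearman correlation kept 5 of the 10 most alike genes.

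Of 900 single values under alternatives, 800 kept direction and side of the threshold, 66 passed it, 24 fell below it and 10 changed sign, all of uncalled values. For the hybrids minus D. sechellia, CG11089 in early pupae became 0.0116 with the first spot only. CG15365 became -0.0486 in early pupae without replicate 2 (-0.0486 to 0.406 over all left-out replicates), 0.12 and 0.00275 in late pupae without replicate 3 and without that hybrid pool alone (-0.32 to 0.12), and -0.0205 in adults with the first spot only, -0.0194 with centring and -0.000269 without replicate 1 (up to 0.128). The late pupal to adult change of CG11089 became -0.0636 in D. melanogaster without replicate 1 (up to 0.168), and 0.00867 with the second spot only and 0.10 with equal SD in D. simulans. The causes were not tested.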

Other observations

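The mean log2 ratio of the fat body markers Fbp1 and Fbp2 was lower in adults than in larvae in each group. The highest and lowest arrays were at -0.36 and -0.73 in larvae and at -3.72 and -4.13 in adults of D. melanogaster. In the hybrids they were at 0.18 and -0.26 in larvae and -3.47 and -3.73 in adults. In D. sechellia the mean was higher in early pupae (-0.09 to 0.06) than in larvae (-0.94 to -0.69). Fbp1 and Fbp2 both fell from late pupa to adult in each of the 4 groups, and any relation of this fall to CG11089 and CG15365 was not tested.

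The gene whose deviations from group means correlated best with those of CG11089 was CG30089 (0.66 over 41 arrays), and for CG15365 it was CCT8 (0.66), both named after their values were seen. The values of 1 larval array of D. sechellia are given to 2 decimals only, unlike those of the other arrays.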
